A study of Mus musculus with 12 samples.

Results

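The genes described here are 39 interferon-stimulated genes and genes of the major histocompatibility complex (MHC) class I pathway, out of 21532 genes in the deposited count table. They were taken from a list of gene symbols matched to Ensembl identifiers through the GENCODE mouse annotation of GRCm38. The rule itself uses no measured value, but the genes were chosen with earlier results of these data known. All 39 were in the table and all 39 passed the filter on low counts that left 18382 genes for testing. The mean level over the 12 libraries was at least 1 CPM (counts scaled by the size of the library) for 37 of them, and Mx1 and Oas1a lay under it with means of 0.871 CPM and 0.906 CPM.

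Messenger RNA was sequenced from the hippocampus of wild-type C57BL/6 mice that had been injected intraperitoneally, with tissue taken 1 h or 6 h later, 1 library per animal. The 4 groups of 3 mice were stigmasterol at 6 h (replicates 13, 22 and 23), vehicle at 6 h (replicates 12, 14 and 21), stigmasterol at 1 h (replicates 1, 11 and 8) and vehicle at 1 h (replicates 4, 5 and 9), and values below follow that order of replicates. Stigmasterol is a plant sterol that resembles cholesterol, and it is the compound named by most of the labels, although another field gives the agent as beta-sitosterol (100 mg/kg). RNA with an integrity number of at least 7 was used, and the sex, the age, the clock time and the make-up of the vehicle are not stated in the sources used here.

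Type I interferons are secreted proteins that bind a receptor on nearly every cell type and act through the kinases JAK1 and TYK2 on a complex of transcription factors that includes STAT2 and IRF9 and binds the interferon-stimulated response element (ISRE) in the promoters of target genes. Interferon gamma acts through its own receptor, and its targets often carry the gamma-activated site (GAS). The targets include antiviral effectors, RNA sensors, the immunoproteasome and the proteins that load peptides onto MHC class I molecules, and in the uninfected brain many of them are transcribed at a low level by microglia, vessel cells and neurons.

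The promoters of 6 of the genes are shown because they cover the gene with the only significant call (Ifitm1), its neighbour in the same family (Ifitm3), 2 classic interferon targets (Isg15 and Ifit1), and the membrane and class I genes with some of the smallest p-values for stigmasterol at 1 h (Bst2 and H2-D1). Each runs from 250 bases before to 50 bases after the RefSeq gene start on GRCm38.p6, 5′ to 3′ on the gene's strand, and capitals mark matches on either strand to the ISRE core (GAAA, any 2 bases, GAAA) or to the GAS (TTCNNNGAA), joined where they overlap.

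Ifitm1 (chr7:140967826-140968125, plus strand): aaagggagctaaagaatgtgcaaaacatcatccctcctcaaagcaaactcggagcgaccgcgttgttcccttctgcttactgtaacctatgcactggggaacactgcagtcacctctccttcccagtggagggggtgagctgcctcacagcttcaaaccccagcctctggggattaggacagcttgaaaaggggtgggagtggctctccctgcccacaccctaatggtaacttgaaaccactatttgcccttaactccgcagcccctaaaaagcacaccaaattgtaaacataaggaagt

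Ifitm3 (chr7:141010695-141010994, minus strand): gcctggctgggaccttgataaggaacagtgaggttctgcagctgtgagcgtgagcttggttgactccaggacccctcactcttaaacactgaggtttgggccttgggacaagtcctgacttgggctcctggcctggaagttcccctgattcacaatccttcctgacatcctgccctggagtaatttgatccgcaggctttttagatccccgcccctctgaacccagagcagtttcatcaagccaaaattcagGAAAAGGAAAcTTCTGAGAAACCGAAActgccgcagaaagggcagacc

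Isg15 (chr4:156200769-156201068, minus strand): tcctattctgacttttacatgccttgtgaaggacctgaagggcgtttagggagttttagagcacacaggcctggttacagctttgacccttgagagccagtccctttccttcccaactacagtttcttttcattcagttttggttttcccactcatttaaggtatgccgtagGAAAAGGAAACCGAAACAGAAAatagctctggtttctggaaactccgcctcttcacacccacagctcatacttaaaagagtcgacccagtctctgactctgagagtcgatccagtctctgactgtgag

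Ifit1 (chr19:34640639-34640938, plus strand): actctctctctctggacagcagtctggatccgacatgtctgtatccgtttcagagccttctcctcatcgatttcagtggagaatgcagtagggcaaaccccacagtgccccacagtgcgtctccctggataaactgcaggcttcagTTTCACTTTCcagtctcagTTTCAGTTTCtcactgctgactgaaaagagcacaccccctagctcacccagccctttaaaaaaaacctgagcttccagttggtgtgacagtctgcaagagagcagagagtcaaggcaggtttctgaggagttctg

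Bst2 (chr8:71537423-71537722, minus strand): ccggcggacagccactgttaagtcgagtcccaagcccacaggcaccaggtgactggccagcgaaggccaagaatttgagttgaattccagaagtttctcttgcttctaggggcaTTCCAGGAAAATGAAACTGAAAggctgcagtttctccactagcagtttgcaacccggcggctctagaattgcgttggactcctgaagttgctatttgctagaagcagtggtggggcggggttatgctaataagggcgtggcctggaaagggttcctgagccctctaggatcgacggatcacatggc

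H2-D1 (chr17:35262844-35263143, plus strand): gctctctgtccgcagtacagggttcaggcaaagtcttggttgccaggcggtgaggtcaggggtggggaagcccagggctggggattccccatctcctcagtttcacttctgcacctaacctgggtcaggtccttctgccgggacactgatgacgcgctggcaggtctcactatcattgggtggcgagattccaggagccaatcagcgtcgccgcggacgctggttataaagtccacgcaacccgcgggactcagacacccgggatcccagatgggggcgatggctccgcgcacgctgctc

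The Isg15 window held 3 overlapping matches to the ISRE core and the Ifit1 window 2 separate ones on the opposite strand. The Ifitm1 and H2-D1 windows held no exact match to either pattern. Both of these windows lie inside the GENCODE span of their gene, so they do not cover the bases before its GENCODE start. Only exact matches were searched, so sites that depart from these letters are not counted, and a window without a match may still hold such a site. Bst2 and Ifitm3 carried both motifs, overlapping in each. RefSeq windows were matched for 31 of the 39 genes, 36 windows in all. The ISRE core was present in 15 of the 36 windows (41.7%), against 3.44% of 32851 mouse promoter windows of the same length. TTCNNNGAA was present in 8 of the 36 (22.2%), against 8.30% of all. No window was matched for Ifi27, Rtp4, Usp18, Mx2, Dhx58, Tap2, Mx1 and Parp14.

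Total counts ranged from 27613253 to 42043875 per library. The libraries differed in tissue outside the hippocampus proper. The summed level of 11 choroid plexus markers ran from 451.5 to 4576 CPM in stigmasterol libraries at 6 h, from 835.8 to 4138 CPM in vehicle libraries at 6 h, from 2006 to 4993 CPM in stigmasterol libraries at 1 h and from 69.4 to 2927 CPM in vehicle libraries at 1 h. At 1 h all 11 plexus markers and all 11 meningeal fibroblast markers had positive fold changes for stigmasterol, with medians of 1.51 and 0.78 on the log2 scale. So had all 8 striatal neuron markers (median 1.09) and all 7 ependymal markers (median 0.72), and the striatal sum reached 362.4 CPM in stigmasterol replicate 8. Microglial markers were positive in 9 of 10 (median 0.12), endothelial markers in 8 of 10 (0.10), pericyte and smooth muscle markers in 7 of 8 (0.14) and hippocampal neuron markers in 3 of 10 (-0.14). All 5 blood markers were negative, with a median of -1.05. The blood sum was 264.7 CPM in vehicle replicate 5 at 1 h, against 45.9 to 96.7 CPM in the other libraries. No marker of these lists passed the test at 1 h. The meningeal sum ran from 145.5 to 180.2 CPM in stigmasterol libraries at 6 h, from 143.1 to 221.7 CPM in vehicle libraries at 6 h, from 118.6 to 285.6 CPM in stigmasterol libraries at 1 h and from 113.7 to 125.7 CPM in vehicle libraries at 1 h. None of these 22 markers was at 0 in any library. All 10 hippocampal neuron markers were detected in every library, with sums from 1258 to 1667 CPM. The parts that these tissue differences play in the results below were not tested beyond the fits with marker covariates given with them.

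Per kilobase of exon, the genes spanned a wide range, shown in the plot of levels per length. B2m, the invariant light chain of class I molecules, was highest at 92.7 CPM per kb, above 98.4% of all genes in the table. Ifi27, an interferon-induced mitochondrial protein, followed at 34.9 CPM per kb, then Ifitm3 at 20.7, H2-D1 at 19.0, H2-K1 at 13.9 and Psmb10 at 12.9 CPM per kb. The lowest were Mx2 at 0.561, Oas1a at 0.481 and Mx1 at 0.230 CPM per kb. Mx1 and Mx2 encode dynamin-like antiviral GTPases, and in C57BL/6 mice Mx1 carries an inactivating deletion, while Mx2 is annotated as a polymorphic pseudogene. Neighbours in this order mostly had overlapping ranges over the 12 libraries.

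**Figure D1:**
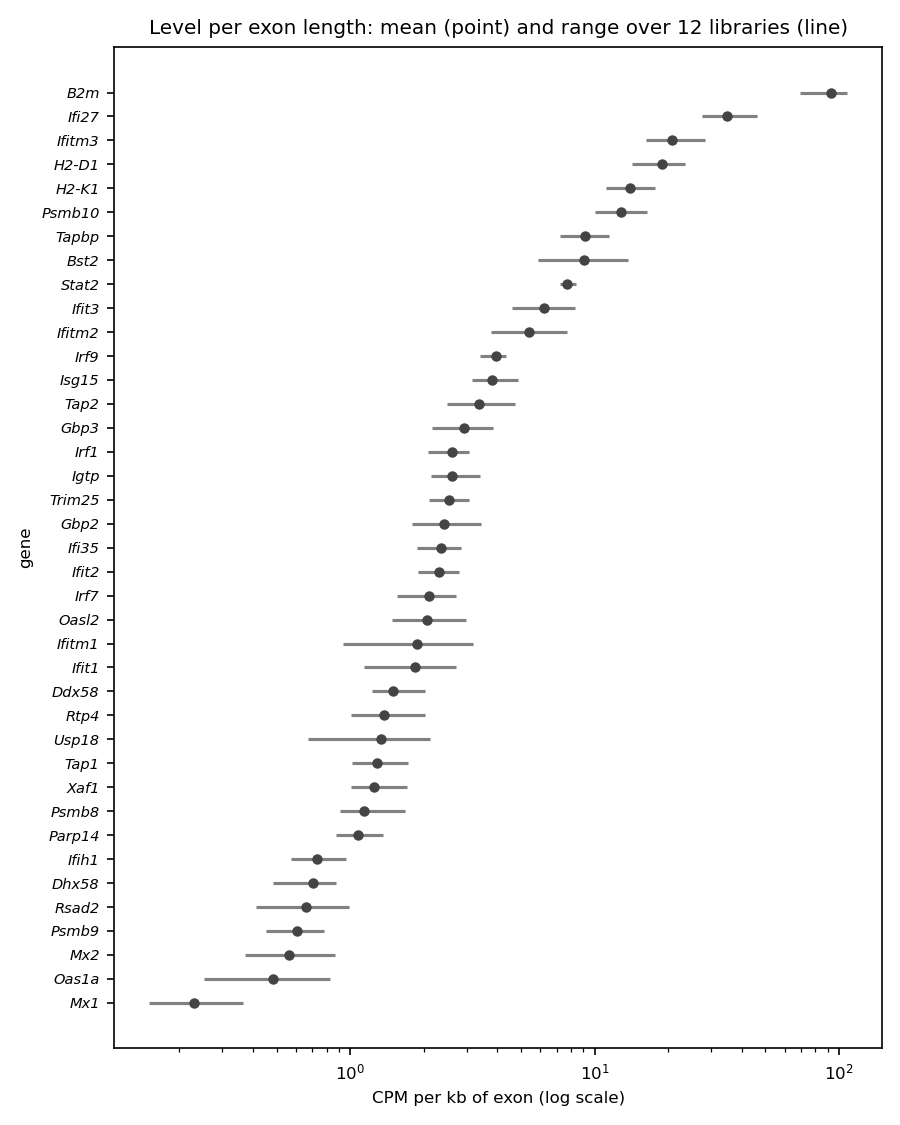
Level of each of the 39 genes in CPM per kilobase of exon on a log axis, as the mean (point) and range (line) over 12 libraries. B2m stands at the top with 92.7 CPM per kb and Mx1 at the bottom with 0.230.

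One hour after injection, the genes leaned towards higher levels in stigmasterol mice, but no single gene passed the test. Of the 39, 35 had a positive log2 fold change, with a median of 0.23, against a median of -0.00 over all 18382 genes. With edgeR's quasi-likelihood test and Benjamini-Hochberg adjustment none was significant (0% of all genes were), with DESeq2 and limma-voom none was either, and the smallest adjusted p among them, that of Ifitm1 with each tool, was 0.649 by edgeR, 0.354 by DESeq2 and 0.628 by limma-voom. At an unadjusted p under 0.05, 9 genes were higher (4.97% of all genes) and 0 lower (2.55% of all genes). The 3 stigmasterol libraries lay wholly above the 3 vehicle libraries for 12 genes (8.23% of all genes did) and wholly below for 0 (7.56%). Those 12 were Ifitm1, Usp18, Mx2, Bst2, Rtp4, Ifih1, Xaf1, Trim25, Tap2, Tapbp, H2-D1 and H2-K1. The median over the list was 0.11 without stigmasterol replicate 11 at 1 h, 0.06 with the meningeal fibroblast level as a covariate and 0.13 with the choroid plexus level as a covariate. These covariates left 28 and 27 positive fold changes of 39. Without replicate 11, 12 genes separated upward (12.8% of all genes) and 4 downward (13.4%). Without vehicle replicates 4 and 9, which had the lowest plexus sums, 22 separated upward (26.5% of all genes) and 1 downward (25.1%). That leaves replicate 5 as the only vehicle library at 1 h. Replicate 5 was the lowest of the 12 libraries for 11 of the 39 genes, and vehicle replicate 12 at 6 h for 12. Within its group replicate 5 was lowest for 19 (35.3% of all genes).

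At 6 h the list stood closer to all genes. There were 32 positive fold changes for stigmasterol against vehicle, with a median of 0.07 on the log2 scale against 0.00 over all genes. By edgeR none of the 39 was significant (0% of all genes), nor by DESeq2 or limma-voom. At an unadjusted p under 0.05 there was 1 gene higher, Psmb8 (1.64% of all genes were higher), and 0 lower (2.46%). In no gene did the groups separate (3.47% of all genes separated upward and 4.75% downward). Without vehicle replicate 21 at 6 h the median was 0.26 and 19 genes separated upward (7.78% of all genes) and 0 downward (9.08%), and without vehicle replicate 12 at 6 h the median was 0.01. In 30 genes the fold change was positive at both times.

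**Figure D2:**
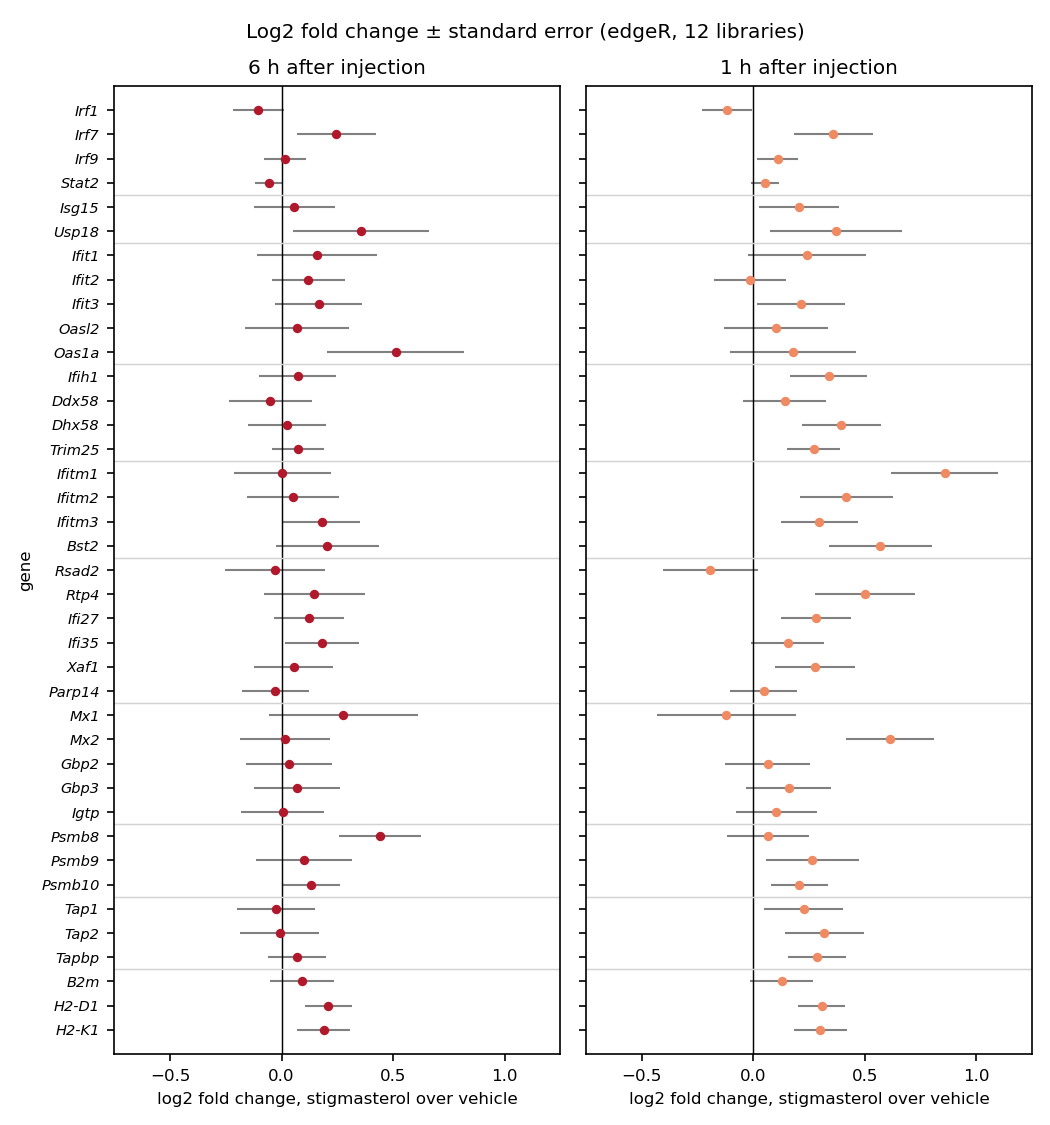
Log2 fold change of stigmasterol over vehicle with its standard error for each of the 39 genes at 6 h (left) and 1 h (right), from the edgeR fit to 12 libraries, grouped by role. At 1 h 35 of 39 points lie above 0 and the farthest is Ifitm1 at 0.86, while at 6 h 32 lie above 0 with a median of 0.07.

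Averaged over both times, 36 of the 39 genes had a positive fold change for stigmasterol, with a median of 0.17, and none was significant by edgeR (0% of all genes), DESeq2 or limma-voom. At an unadjusted p under 0.05, 6 were higher (4.69% of all genes) and 0 lower (4.47%), namely Ifitm1, Irf7, Mx2, Bst2, H2-D1 and H2-K1. The smallest adjusted p was 0.344, for H2-D1. The difference between the effects at 6 h and 1 h was also not significant for any of the 39 by edgeR (0% of all genes), DESeq2 or limma-voom. It was negative in 32 with a median of -0.11, and 1 gene had an unadjusted p under 0.05, Ifitm1 (-0.85 ± 0.32, standard error; 1.67% of all genes were lower at that level and 0.642% higher). With the meningeal fibroblast covariate the median difference was 0.07.

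Among the factors that carry the interferon signal, Stat2 and Irf9, which belong to the ISRE-binding complex, were the steadiest genes of the list. Stat2 measured 45.9, 44.7 and 48.2 CPM in stigmasterol mice at 6 h, 47.4, 49.6 and 47.4 CPM in vehicle mice at 6 h, 47.6, 45.002 and 43.6 CPM in stigmasterol mice at 1 h and 42.7, 44.4 and 44.3 CPM in vehicle mice at 1 h. Stigmasterol and vehicle groups overlapped at both times, with log2 fold changes of -0.06 ± 0.06 at 6 h and 0.05 ± 0.06 at 1 h. The pooled within-group SD of Stat2 was 0.049 on the log2 scale, against a median of 0.115 for genes of like level. Irf9 showed 19.8, 20.6 and 21.98 CPM (stigmasterol, 6 h), 18.2, 21.1 and 22.3 CPM (vehicle, 6 h), 21.6, 23.3 and 23.1 CPM (stigmasterol, 1 h) and 22.6, 20.7 and 19.8 CPM (vehicle, 1 h). Its groups overlapped in every comparison, with fold changes for stigmasterol of 0.01 ± 0.09 at 6 h and 0.11 ± 0.09 at 1 h.

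Irf7, the factor that amplifies the type I interferon response and is itself strongly interferon-induced, varied more. It was at 10.3, 9.11 and 8.18 CPM in stigmasterol mice at 6 h, against 5.88, 7.62 and 9.79 CPM in vehicle mice at 6 h. At 1 h the levels were 6.66, 9.15 and 8.91 CPM with stigmasterol, against 6.39, 6.97 and 5.91 CPM with vehicle. The groups overlapped through vehicle replicate 21, which was high at 6 h, and stigmasterol replicate 1, which was low at 1 h. Averaged over the times, the fold change was 0.30 ± 0.13 (adjusted p = 0.507). Irf1, an early interferon target, ran the other way, with 10.3, 11.4 and 9.88 CPM (stigmasterol, 6 h), 11.4, 12.2 and 10.3 CPM (vehicle, 6 h), 9.55, 10.6 and 8.25 CPM (stigmasterol, 1 h) and 9.88, 10.1 and 10.8 CPM (vehicle, 1 h). Its fold changes, -0.10 ± 0.11 at 6 h and -0.12 ± 0.11 at 1 h, lay within about 1 standard error of 0.

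Isg15, a ubiquitin-like modifier that is among the most interferon-inducible genes, showed no separation. It had 2.94, 3.05 and 2.402 CPM in stigmasterol mice at 6 h, against 2.38, 3.10 and 2.57 CPM in vehicle mice at 6 h. One hour after injection it had 2.46, 3.66 and 3.57 CPM with stigmasterol, against 2.55, 2.82 and 3.02 CPM with vehicle. Both ranges overlapped, with fold changes of 0.06 ± 0.18 at 6 h and 0.21 ± 0.18 at 1 h. Usp18, the protease that removes ISG15 and dampens receptor signalling, had the largest within-group SD of the list, 0.432 on the log2 scale against 0.219 for genes of like level. Its highest library was stigmasterol replicate 11 at 1 h (5.90 CPM) and its lowest vehicle replicate 12 at 6 h (1.87 CPM), a span of 3.15-fold.

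Ifit1, Ifit2 and Ifit3 encode proteins that bind foreign RNA, and Oas1a and Oasl2 belong to the oligoadenylate synthetase family. Of these 5 genes, 5 had a positive fold change for stigmasterol at 6 h and 4 at 1 h, none with an unadjusted p under 0.05. Ifit3 had 12.2, 12.03 and 11.73 CPM (stigmasterol, 6 h), 8.02, 9.64 and 14.5 CPM (vehicle, 6 h), 9.17, 13.6 and 10.5 CPM (stigmasterol, 1 h) and 10.4, 8.17 and 10.03 CPM (vehicle, 1 h). Vehicle replicate 21 at 6 h and stigmasterol replicate 11 at 1 h were its highest libraries, with fold changes of 0.17 ± 0.20 at 6 h and 0.21 ± 0.20 at 1 h. Ifit1 and Oasl2 spanned 3.03 to 7.17 CPM and 9.45 to 18.9 CPM over the libraries, with fold changes at 1 h of 0.24 ± 0.26 and 0.10 ± 0.23. Ifit3 has a near-identical neighbour, Ifit3b, so reads shared by the pair may be assigned unevenly.

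The cytosolic RNA sensors and their regulators leaned towards stigmasterol at 1 h. All 4 (Ifih1, Ddx58, Dhx58 and Trim25) had positive fold changes there, with a median of 0.31, and 3 of 4 at 6 h, with a median of 0.05. With the meningeal fibroblast level as a covariate those at 1 h were 0.18 (Ifih1), -0.09 (Ddx58), 0.21 (Dhx58) and 0.16 (Trim25). The plexus covariate gave 0.28, 0.13, 0.21 and 0.23 in the same order. Dhx58, which encodes the regulatory sensor LGP2, had 2.11, 2.82 and 2.58 CPM (stigmasterol, 6 h), 2.44, 2.503 and 2.43 CPM (vehicle, 6 h), 2.37, 2.86 and 2.00 CPM (stigmasterol, 1 h) and 1.81, 2.11 and 1.58 CPM (vehicle, 1 h). At 1 h the groups overlapped only through stigmasterol replicate 8, and the fold change was 0.40 ± 0.18 (adjusted p = 0.661). Trim25, the ubiquitin ligase that activates the sensor RIG-I, averaged 15.2 ± 1.74 CPM in stigmasterol mice at 1 h and 12.6 ± 0.567 CPM in vehicle mice at 1 h (SD, n = 3 each), with a fold change of 0.27 ± 0.12.

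The interferon-induced transmembrane proteins restrict the entry of enveloped viruses, and Ifitm1 held the largest fold change of the list. It measured 1.98, 2.37 and 3.47 CPM in stigmasterol mice at 6 h, 2.97, 2.19 and 2.65 CPM in vehicle mice at 6 h, 1.80, 2.42 and 1.62 CPM in stigmasterol mice at 1 h and 1.06, 1.02 and 1.13 CPM in vehicle mice at 1 h. The vehicle libraries at 1 h were the 3 lowest of the 12, and the other 3 groups overlapped one another. At 1 h stigmasterol mice averaged 1.95 ± 0.417 CPM and vehicle mice 1.07 ± 0.0538 CPM (SD, n = 3 each), a log2 fold change of 0.86 ± 0.24 that did not pass edgeR's test (adjusted p = 0.649). With the meningeal fibroblast level as a covariate it was 0.51, and with the choroid plexus level 0.91. At 6 h the fold change was 0.00 ± 0.22.

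Ifitm2 and Ifitm3 lie beside Ifitm1 on chromosome 7 (Ifitm1 at chr7:140967221-140969825, Ifitm2 at chr7:140954837-140955987 and Ifitm3 at chr7:141009586-141010770 on GRCm38). Ifitm3 had 12.9, 15.9 and 16.9 CPM (stigmasterol, 6 h), 12.95, 10.98 and 16.4 CPM (vehicle, 6 h), 12.3, 19.1 and 14.2 CPM (stigmasterol, 1 h) and 12.9, 11.97 and 12.3 CPM (vehicle, 1 h). Replicate 11 was the high library at 1 h, replicate 1 lay within the vehicle range, and the fold change was 0.30 ± 0.17. Ifitm2 had 3.38, 4.21 and 4.23 CPM (stigmasterol, 6 h), 4.04, 3.36 and 4.02 CPM (vehicle, 6 h), 2.89, 5.07 and 2.94 CPM (stigmasterol, 1 h) and 2.90, 2.47 and 2.77 CPM (vehicle, 1 h). Here too replicate 11 stood apart at 1 h, with a fold change of 0.42 ± 0.21. With the meningeal fibroblast level as a covariate the fold changes at 1 h were 0.02 for Ifitm2 and 0.02 for Ifitm3. The choroid plexus covariate gave 0.33 and 0.17. Ifitm2 shares exon bases on its own strand with Gm45717, whose reads may be counted with it. The same limit holds for Irf9 (with Rnf31), Rtp4 (with Gm45338), Igtp (with Irgm2), Tapbp (with Zbtb22) and Parp14 (with Gm49730).

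Bst2 (chr8:71534255-71537456), or tetherin, holds budding virions at the cell surface. It had 7.68, 12.4 and 7.08 CPM in stigmasterol mice at 6 h, 7.58, 6.11 and 9.93 CPM in vehicle mice at 6 h, 7.94, 11.2 and 9.09 CPM in stigmasterol mice at 1 h and 5.30, 7.47 and 6.28 CPM in vehicle mice at 1 h. At 1 h the groups did not overlap, and the fold change was 0.57 ± 0.23 (adjusted p = 0.655). The 3 libraries with most Bst2, stigmasterol 22 at 6 h, stigmasterol 11 at 1 h and vehicle 21 at 6 h, were also the 3 with the highest choroid plexus marker sums (4576, 4993 and 4138 CPM). With the plexus level as a covariate the fold change at 1 h was 0.06, and with the meningeal fibroblast level 0.35. A correction for GC content and gene length gave 0.43. As in any bulk tissue, fewer cells of a type and less RNA per cell cannot be told apart.

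**Figure D3:**
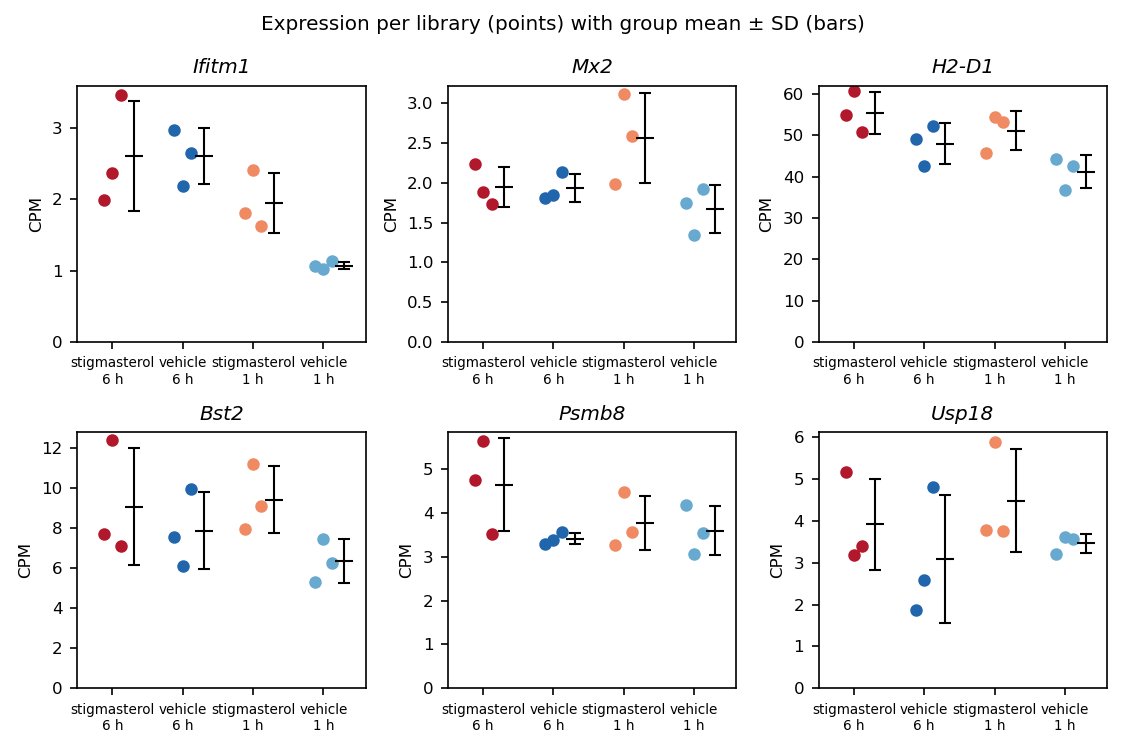
CPM per library (points) with the group mean and SD for selected genes in the 4 groups, each with 3 mice. Ifitm1 is lowest in vehicle mice at 1 h (1.07 ± 0.0538 CPM), and H2-D1 is higher in each stigmasterol library than in each vehicle library at 1 h.

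Of the other effectors, Rsad2, which encodes the radical-SAM antiviral enzyme viperin, was one of 4 genes with a negative fold change for stigmasterol at 1 h (-0.19 ± 0.21), beside Irf1, Mx1 and Ifit2. Its levels were 2.51, 2.14 and 2.34 CPM (stigmasterol, 6 h), 1.78, 2.22 and 3.19 CPM (vehicle, 6 h), 2.63, 3.82 and 2.89 CPM (stigmasterol, 1 h) and 3.21, 4.30 and 3.17 CPM (vehicle, 1 h). Its levels at 6 h were mostly below those at 1 h in both treatments. Rtp4, an interferon-induced chaperone-like protein, averaged 3.49 ± 0.775 CPM in stigmasterol mice at 1 h and 2.46 ± 0.273 CPM in vehicle mice at 1 h (SD, n = 3 each), with a fold change of 0.50 ± 0.22.

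Mx2 was the second member of the list by p-value at 1 h. It had 2.23, 1.88 and 1.73 CPM in stigmasterol mice at 6 h, 1.81, 1.85 and 2.14 CPM in vehicle mice at 6 h, 1.99, 3.12 and 2.58 CPM in stigmasterol mice at 1 h and 1.74, 1.34 and 1.92 CPM in vehicle mice at 1 h. The 1 h groups were separated by the gap between stigmasterol replicate 1 and vehicle replicate 9, and the fold change was 0.61 ± 0.20 (adjusted p = 0.649). The 3 GTPases that respond mainly to interferon gamma, Gbp2, Gbp3 and Igtp, had fold changes between 0.07 and 0.16 at 1 h.

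The class I heavy chains H2-D1 and H2-K1, which present peptides to CD8+ T cells, were among the 9 genes with an unadjusted p under 0.05 for stigmasterol at 1 h. H2-D1 (chr17:35262730-35267499) had 54.8, 60.7 and 50.7 CPM in stigmasterol mice at 6 h, 49.1, 42.5 and 52.2 CPM in vehicle mice at 6 h, 45.6, 54.3 and 53.2 CPM in stigmasterol mice at 1 h and 44.4, 36.7 and 42.5 CPM in vehicle mice at 1 h. At 1 h the groups did not overlap, and at 6 h they overlapped only through stigmasterol replicate 23 and vehicle replicate 21. Its fold changes were 0.21 ± 0.11 (6 h), 0.31 ± 0.11 (1 h) and, over both times, 0.26 ± 0.07 (adjusted p = 0.344). After a correction for GC content and gene length they were 0.17 at 6 h and 0.20 at 1 h. With the plexus level as a covariate they were 0.22 at 6 h and 0.27 at 1 h. The meningeal fibroblast covariate gave 0.23 at 6 h and 0.24 at 1 h. At 1 h the unadjusted p of H2-D1 in these 2 edgeR fits was 0.0792 and 0.0717.

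H2-K1 (chr17:33996017-34000347) had 45.003, 52.1 and 39.3 CPM (stigmasterol, 6 h), 40.4, 34.6 and 44.9 CPM (vehicle, 6 h), 38.6, 43.9 and 47.0 CPM (stigmasterol, 1 h) and 35.4, 32.6 and 37.0 CPM (vehicle, 1 h). It too separated at 1 h only, with fold changes of 0.19 ± 0.12 at 6 h and 0.30 ± 0.12 at 1 h. The GC and length correction gave 0.16 at 6 h and 0.22 at 1 h. With the plexus level as a covariate they were 0.21 at 6 h and 0.19 at 1 h. The meningeal fibroblast covariate gave 0.20 at 6 h and 0.27 at 1 h. At 1 h the unadjusted p of H2-K1 in these 2 edgeR fits was 0.248 and 0.0826. H2-D1, H2-K1 and other class I genes are close paralogs, so reads may be divided among them unevenly. B2m, their shared light chain, had 75.5, 72.4 and 89.5 CPM (stigmasterol, 6 h), 70.6, 59.5 and 93.0 CPM (vehicle, 6 h), 86.1, 92.8 and 80.4 CPM (stigmasterol, 1 h) and 86.1, 68.3 and 82.9 CPM (vehicle, 1 h). The groups overlapped at both times, with fold changes of 0.09 ± 0.14 at 6 h and 0.13 ± 0.14 at 1 h.

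Psmb8, Psmb9 and Psmb10 encode the catalytic subunits of the immunoproteasome, which cuts the peptides that class I presents. Psmb8 was the gene with the smallest p at 6 h, with 4.74, 5.64 and 3.53 CPM (stigmasterol, 6 h), 3.30, 3.38 and 3.55 CPM (vehicle, 6 h), 3.27, 4.47 and 3.57 CPM (stigmasterol, 1 h) and 4.17, 3.06 and 3.53 CPM (vehicle, 1 h). Stigmasterol replicate 23 lay within the vehicle range at 6 h, and the fold change there was 0.44 ± 0.18, which did not pass the adjusted test. The constitutive subunits that they replace, Psmb5, Psmb6 and Psmb7, had 3 positive fold changes of 3 at 6 h, with a median of 0.08, and 2 of 3 at 1 h, with a median of 0.07.

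Tap1 and Tap2 form the transporter that brings peptides into the endoplasmic reticulum, and Tapbp encodes tapasin, which tethers it to class I molecules. Tap1 had 7.56, 9.47 and 5.75 CPM (stigmasterol, 6 h), 6.86, 7.51 and 8.81 CPM (vehicle, 6 h), 5.83, 8.21 and 6.94 CPM (stigmasterol, 1 h) and 5.58, 6.02 and 6.31 CPM (vehicle, 1 h). The ranges overlapped at both times, with fold changes of -0.02 ± 0.18 at 6 h and 0.23 ± 0.18 at 1 h. Tap2 had 12.1, 17.9 and 9.39 CPM (stigmasterol, 6 h), 12.6, 12.6 and 14.5 CPM (vehicle, 6 h), 12.7, 14.6 and 13.4 CPM (stigmasterol, 1 h) and 10.8, 10.4 and 11.5 CPM (vehicle, 1 h). It separated at 1 h, with a fold change of 0.32 ± 0.18, and stigmasterol replicates 22 and 23 were its highest and lowest libraries at 6 h. With the plexus level as a covariate the fold changes at 1 h were 0.08 for Tap2 and -0.03 for Tap1. The meningeal fibroblast covariate gave 0.24 and 0.13. Tapbp had a fold change of 0.29 ± 0.13 at 1 h. It was 0.03 with the plexus level as a covariate, 0.20 with the meningeal fibroblast level and 0.17 with the GC and length correction. Tap1 and Psmb9 share exon bases on opposite strands, and no source used here states whether counting used strand.

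Within groups, single animals stood high or low across much of the list, as the heat map of the genes by library shows. Stigmasterol replicate 11 at 1 h was the highest of its group for 35 of 39 genes (34.4% of all genes), and vehicle replicate 21 at 6 h for 31 (38.6% of all genes). The summed level of the 39 genes was 560.9, 600.3 and 546.2 CPM in stigmasterol mice at 6 h, 505.1, 480.2 and 616.1 CPM in vehicle mice at 6 h, 522.3, 638.9 and 559.3 CPM in stigmasterol mice at 1 h and 506.9, 481.9 and 502.1 CPM in vehicle mice at 1 h. The sums of replicate 11 and replicate 21 were thus the highest of the 12, one from each treatment. The within-group SD was above the median of genes of like level for 32 of the 39.

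These high libraries did not share all genes. Replicates 11 and 21 held the highest level over all 12 libraries for 13 and 12 genes, among them Usp18, Ifit1, Rtp4 and Isg15 in replicate 11 and Ifit3, Oasl2, Gbp2 and B2m in replicate 21. Stigmasterol replicate 22 at 6 h was highest for 8, namely Bst2, Psmb8, Tap1, Tap2, Tapbp, H2-D1, H2-K1 and Ifi35, of which all but Bst2 and Ifi35 belong to the class I pathway. As shares of the list these were 33.3%, 30.8% and 20.5%, against 7.44%, 8.93% and 13.2% of all genes that were highest in replicates 11, 21 and 22. Replicate 22 also had the steepest rise of level with a gene's GC content, 0.290 on the log2 scale for each 10 percentage points against -0.15 to 0.18 in the other libraries. Its 8 genes had GC contents from 52.5% to 57.1%, where the median over all genes was 49.6%, and the part of GC content in their levels there was not tested. These 3 libraries were also highest in plexus markers, and replicate 11 was highest in meningeal fibroblast markers (285.6 CPM, against 113.7 to 221.7 CPM in the other libraries). The summed microglial markers were 575.9 CPM in replicate 11, within the range of 520.1 to 714.7 CPM over all libraries. Of 11 lymphocyte and leukocyte markers 9 were in the table, and Siglech, which microglia also express, made up 18.1 to 23.1 CPM of their sums. The other 8 together had 2.19 to 3.501 CPM in stigmasterol mice at 6 h, 1.28 to 2.88 CPM in vehicle mice at 6 h, 0.995 to 2.94 CPM in stigmasterol mice at 1 h and 0.916 to 1.097 CPM in vehicle mice at 1 h. The neutrophil gene S100a9 had most of the spread, with 1.00 to 1.62, 0.483 to 1.49, 0.338 to 1.54 and 0.211 to 0.374 CPM in the same 4 groups. The T cell gene Cd3d was at 0 in 4 libraries, and Nkg7 and Ly6c2 in 1 each.

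**Figure D4:**
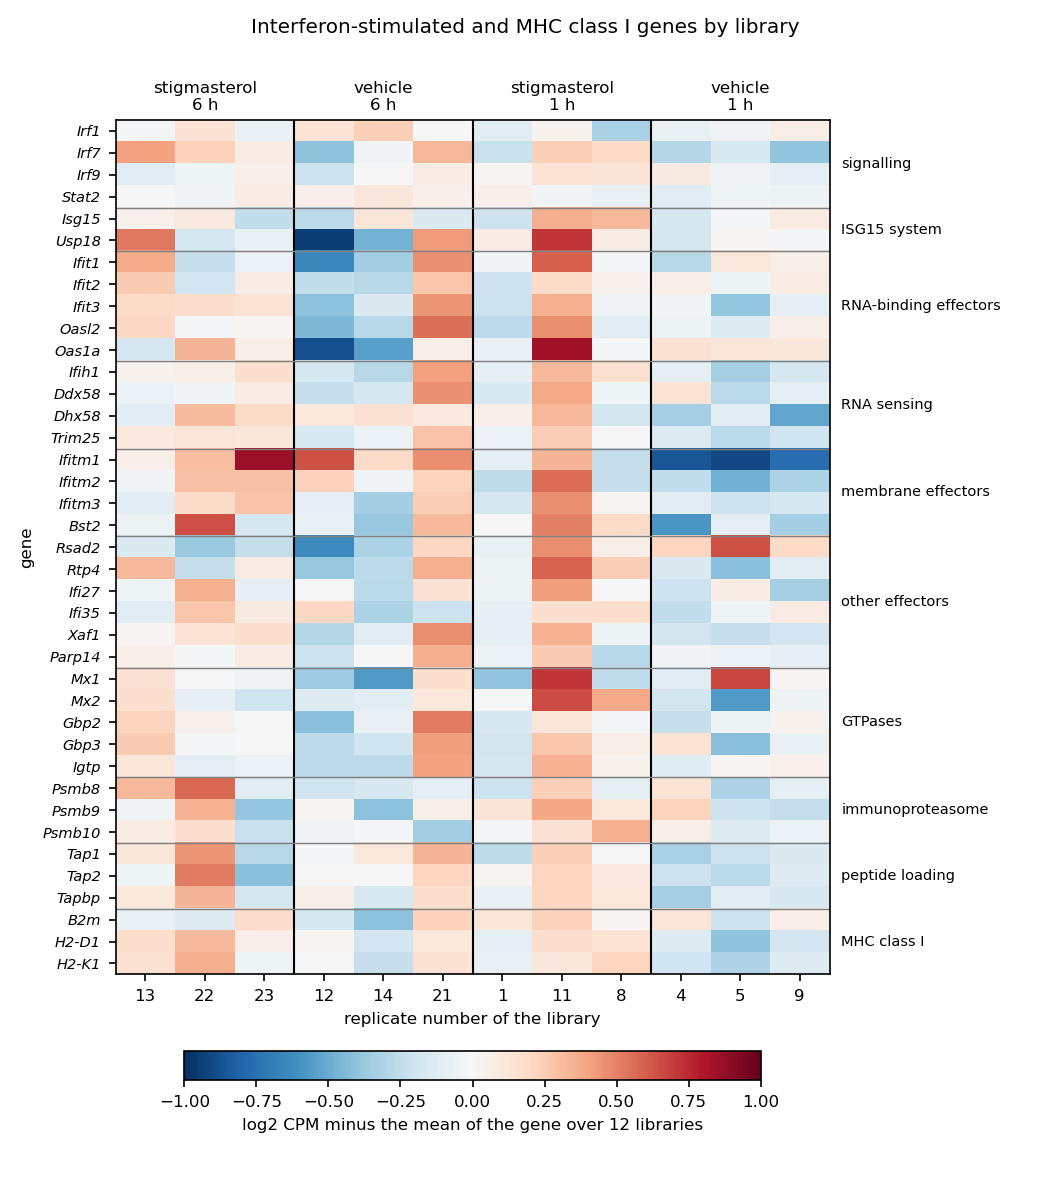
Heat map of the 39 genes (rows, by role) in the 12 libraries (columns, by group and replicate), coloured by log2 CPM minus the gene's mean over all libraries. Stigmasterol replicate 11 at 1 h and vehicle replicate 21 at 6 h are the columns with most high values, highest within their group for 35 and 31 genes.

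**Figure D5:**
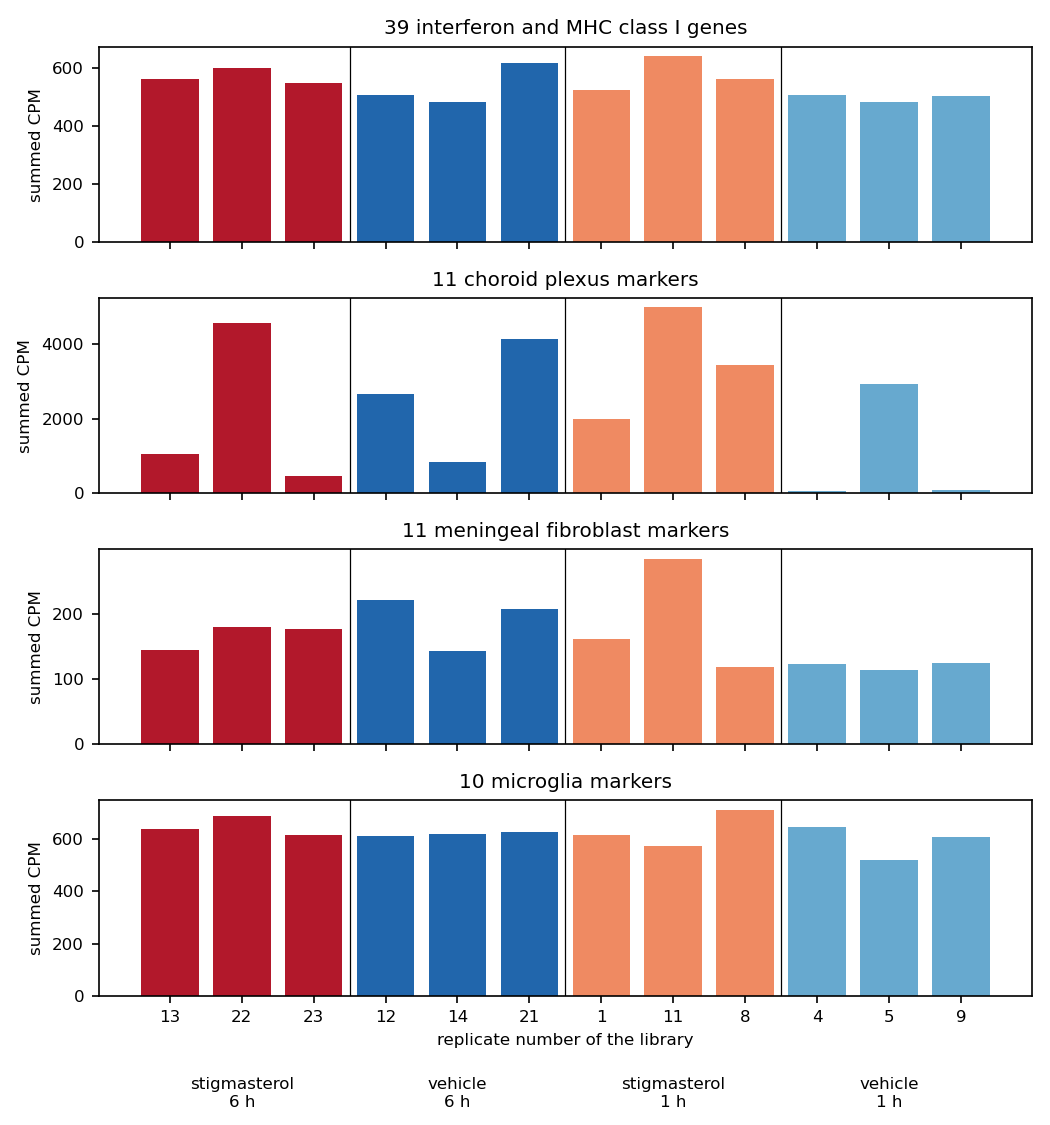
Level of the listed genes and of the choroid plexus, meningeal fibroblast and microglial marker lists in each of the 12 libraries. Stigmasterol replicate 11 at 1 h has 638.9 CPM for the listed genes and 4993 CPM for plexus markers, the highest of both.

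The comparison of 6 h with 1 h within vehicle mice gave the single call among the 39. It sets different animals against each other, and there was no uninjected group. Time after injection cannot be told apart there from clock time, which is not stated. All replicate numbers at 1 h were also lower than those at 6 h. Ifitm1 was higher in vehicle mice at 6 h (2.60 ± 0.392 CPM) than at 1 h (1.07 ± 0.0538 CPM; SD, n = 3 each). Its log2 fold change was 1.28 ± 0.24 (adjusted p = 0.0394 by edgeR's quasi-likelihood test). Ifitm1 was 1 of 124 genes called in that comparison (0.675% of all genes). In edgeR the call held with only the groups compared (adjusted p = 0.00875) and with the GC and length correction (adjusted p = 0.0193). It also held with the other size factors and filters. Leaving out stigmasterol replicate 8 or 11 at 1 h, or 13, 22 or 23 at 6 h, kept it as well. DESeq2's Wald test gave Ifitm1 a fold change of 1.28 and an unadjusted p of 3.02e-06, with no adjusted p. The call was lost without any 1 of the 6 vehicle libraries (replicates 12, 14 and 21 at 6 h and 4, 5 and 9 at 1 h) or without stigmasterol replicate 1 at 1 h, where the adjusted p ran from 0.0589 to 0.148 and the fold change from 1.17 to 1.39. It was also lost with the meningeal covariate (0.92, adjusted p = 0.102), with the plexus covariate (1.32, adjusted p = 0.162), without vehicle replicates 4 and 9 together (1.35, adjusted p = 0.444), and with limma-voom (1.254, adjusted p = 0.0518). Plexus markers in vehicle mice were positive at 6 h against 1 h in 11 of 11 and meningeal markers in 10 of 11, with medians of 1.18 and 0.81. Without vehicle replicates 4 and 9 at 1 h, which leaves replicate 5 alone there, 16 of the 39 genes separated upward between the times (32.9% of all genes). In that setting 3 separated downward (31.2%). Without vehicle replicate 21 at 6 h, 7 separated upward (21.9%) and 8 downward (23.5%).

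Over the list, 26 of 39 genes had a positive fold change at 6 h against 1 h in vehicle mice, with a median of 0.13 (0.01 over all genes), which was -0.03 without vehicle replicate 21 at 6 h. At an unadjusted p under 0.05, 3 were higher (10.6% of all genes) and 1 lower (10.7%), namely Ifitm1, Ifitm2 (0.49 ± 0.21), Dhx58 (0.42 ± 0.18) and, lower, Rsad2 (-0.58 ± 0.22). The groups separated upward for 6 genes (15.9% of all genes) and downward for 1 (17.4%), shares that do not exceed those of all genes. In stigmasterol mice the same comparison had 20 positive fold changes, a median of 0.00 and no significant gene among the 39 by edgeR (0.00544% of all genes), DESeq2 or limma-voom, with 0 at an unadjusted p under 0.05 (5.41% of all genes higher and 4.59% lower). Only Rsad2 separated between the times there, lower at 6 h (-0.41 ± 0.22; 6.61% of all genes separated downward and 6.91% upward). Mx2 had -0.39 ± 0.19 and Ifitm1 0.42 ± 0.22 in stigmasterol mice. The vehicle libraries at 1 h are shared by the comparison of treatments at 1 h and that of times in vehicle mice, so the values of Ifitm1 in the 2 comparisons are not independent.

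Other genes of the pathway, which were not among the 39, gave 1 call. It was Ifngr2, a chain of the interferon gamma receptor, out of 14 receptor, kinase and feedback genes. In vehicle mice it was lower at 6 h (44.6 ± 1.73 CPM) than at 1 h (54.9 ± 0.4996 CPM; SD, n = 3 each). Its fold change was -0.30 ± 0.06 (adjusted p = 0.0432 by edgeR). Over 24 other settings the fold change stayed between -0.33 and -0.26, and the call held in 8, among them DESeq2's test (adjusted p = 0.000377), and was lost in 16 (adjusted p from 0.05145 to 0.449). It was lost without any 1 of the 6 vehicle libraries, without stigmasterol replicate 1 or 11 at 1 h or 13 at 6 h, with the plexus covariate (adjusted p = 0.167), with the meningeal covariate (0.102), with limma-voom (0.0542), with upper-quartile factors, with no filter, and without vehicle replicates 4 and 9 or replicates 11 and 21 together. For stigmasterol at 1 h these 14 had 9 positive fold changes and a median of 0.08. The smallest p was that of Socs1, the feedback inhibitor of JAK kinases, with 0.451 ± 0.101 CPM in stigmasterol mice and 0.191 ± 0.0433 CPM in vehicle mice (SD, n = 3 each) and a fold change of 1.21 ± 0.35 (adjusted p = 0.649). Irf3 (0.26 ± 0.09) and Jak1 (-0.15 ± 0.07) followed. At 6 h 9 of the 14 were positive, with a median of 0.03.

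The 9 tested genes for nucleic acid sensors and adaptors had 4 positive fold changes at each time, with medians of -0.05 at 6 h and -0.02 at 1 h. None separated at either time. Of all genes, 3.47% separated upward and 4.75% downward at 6 h, and 8.23% and 7.56% at 1 h. Of 37 further interferon-stimulated genes, 22 were positive at 6 h and 27 at 1 h, with medians of 0.04 and 0.13. At an unadjusted p under 0.05, 1 was higher at 1 h (4.97% of all genes were) and 0 lower (2.55%). That 1 was Lgals3bp, a secreted glycoprotein (0.43 ± 0.19), and the count does not exceed the share of all genes. Of 20 further antigen presentation genes, 12 were positive at 6 h and 17 at 1 h, with medians of 0.02 and 0.13. Their 3 smallest p-values at 1 h belonged to the nonclassical class I gene H2-T23 (0.55 ± 0.19) and to 2 class II pathway genes, H2-Aa (1.03 ± 0.40) and Cd74 (0.80 ± 0.34). Of the 20, 3 were higher at an unadjusted p under 0.05 at 1 h (4.97% of all genes) and 0 lower (2.55%). The groups separated upward for 5 (8.23% of all genes) and downward for 1 (7.56%). None of these genes passed the adjusted test in a comparison of stigmasterol with vehicle, and each list's median lay nearer to 0 at 6 h than at 1 h except those of the sensors and adaptors and of the constitutive proteasome subunits.

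Fold changes for stigmasterol were also described by promoter motif, over the 31 genes with a window and with no test of the difference. At 1 h the 15 genes with the ISRE core had a median of 0.18 with 14 positive. The 16 without an exact match to it had 0.25 with 14 positive. At 6 h the medians were 0.07 with the motif and 0.09 without it. For TTCNNNGAA, the 8 genes with a match had medians of 0.18 at 6 h and 0.13 at 1 h, against 0.07 and 0.23 for the 23 without.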

How the data were processed

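Hippocampal mRNA was measured in 12 libraries of 4 groups. The authors deposited a table of raw counts, whole numbers of reads per gene, which was the input of every test; their normalized table was not used. The submitters' processing notes list HTSeq 0.6.1p1, STAR 2.4.2a, DESeq, DESeq2 1.10.1, cutadapt and bcl2fastq 2.17.1.14, in no stated order, and the build GRCm38. GENCODE M21 gave coordinates for 21501 of 21532 genes. Every gene had at least 6 counts in some library, so rarer genes are not analysed here.

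The filterByExpr function of edgeR 4.0.16 (R 4.3.3) kept 18382 genes. After TMM scaling, edgeR's quasi-likelihood model was fitted to the 12 libraries together, with a mean for each of the 4 groups. The 6 comparisons were the effect of stigmasterol relative to vehicle (6 h, 1 h, their average and their difference) and 6 h against 1 h within each treatment. The p-values were adjusted over all genes by the Benjamini-Hochberg method (threshold 0.05). A value after ± beside a fold change is its standard error, and fold changes are on the log2 scale. The common biological coefficient of variation was 0.123, and the median standard error was 0.117 at each time for genes of at least 1 CPM. CPM used TMM-scaled totals. The scripts were tested on simulated data.

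Values in every library are given for fixed landmark genes and for genes of at least 1 CPM among the 5 smallest p in a comparison; of each further list, genes with the 3 smallest p at 1 h or 6 h or past the threshold may be named. The genes, lists and rules were chosen with earlier results of these data known, and the grouping by role and the choice of promoters were made after the values had been seen. Alternatives were other size factors and filters, the DESeq2 1.42.0 Wald test, limma-voom (limma 3.58.1), only the groups compared, marker covariates, a GC and length correction, an adjusted p of 0.1 and leaving out libraries. Promoters and motifs came from RefSeq windows on GRCm38.p6, searched on both strands.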

Additional observations from a re-analysis of the deposited data

How the results depend on the processing

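Counts of 0 among the 39 genes for stigmasterol against vehicle, and for the difference of the effects, held in all alternatives run. The list's median for stigmasterol at 1 h was 0.063 with the meningeal fibroblast covariate, and ran from 0.11 to 0.35 with 1 library left out. At 6 h it was 0.26 without stigmasterol replicate 11 at 1 h and vehicle replicate 21 at 6 h together, a setting added after seeing the data, and 0.0091 to 0.26 with 1 library left out. Averaged, it ran from 0.13 to 0.24. For the difference of effects it was 0.067 with the meningeal covariate and 0.078 without both libraries, and -0.21 to -0.02 with 1 left out. With 1 library left out it was -0.03 to 0.21 for 6 h against 1 h in vehicle mice and -0.09 to 0.11 in stigmasterol mice. The cause of these shifts was not tested.

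Over all genes, the DESeq2 Wald test called 20 for stigmasterol at 1 h, 2 at 6 h and 106 averaged. The averaged count was 3 with no filter, 7 at an adjusted p of 0.1 and 0 to 26 with 1 library left out. For 6 h against 1 h in vehicle mice, 124 genes became 187 with upper-quartile factors, 276 with the stricter filter, 1148 with DESeq2, 1771 with only the groups compared, 767 with the GC and length correction and 963 at an adjusted p of 0.1. That count was 0 with either marker covariate or without vehicle replicates 4 and 9 at 1 h, 2 without stigmasterol replicate 11 and vehicle replicate 21, and 0 to 582 with 1 library left out. The 1 call among the 39 became 0 with limma-voom, with either marker covariate and without stigmasterol replicate 11 and vehicle replicate 21 together. It was 0 to 1 with 1 library left out. DESeq2 called 0 of the 39 but gave Ifitm1 no adjusted p (unadjusted p = 3.02e-06 by its Wald test), so the call was neither kept nor lost there. In stigmasterol mice the 1 gene became 8 with upper-quartile factors, 0 with the stricter filter or only the groups compared, 90 with DESeq2, 4 with the meningeal covariate, 9 with the GC and length correction, 2 without the 2 high libraries, 16 at an adjusted p of 0.1 and 0 to 5 with 1 left out. No scaling moved the median of all genes by over 0.1. Precision is limited by 3 mice per group. The median standard error of a stigmasterol fold change at each time was 0.117 over genes of at least 1 CPM. Over the 39 genes it was 0.178. No paired analysis was possible because the replicate numbers differ between all groups.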
